A study of Mus musculus with 6 samples.

Results

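Open chromatin was examined at 9 genes of the homing, egress, adhesion and survival of B-lineage cells: the chemokine receptors Cxcr4, Cxcr5 and Ccr7, the sphingosine 1-phosphate receptor S1pr1, the integrin chains Itga4 and Itga9, the adhesion receptor Cd44, the tetraspanin Cd9 and the interleukin 6 receptor chain Il6ra. Peaks of 6 ATAC-seq libraries, in which a transposase cuts open DNA, that shared 1 bp or more were joined into merged regions, and each of these was given to the protein-coding gene closest to it, up to 100 kb away (RefSeq intervals, mm10). The 9 genes received 142 of 69171 merged regions, of which 65360 had a gene within that distance. The cells came from the bone marrow of naive Adig mice of the Balb/c strain, in which GFP reports expression of the autoimmune regulator Aire, so every population carried the reporter construct. Sorting took pc-BMACs from the AireGFP+B220-CD138+TACI+ gate and plasma cells from the AireGFP-B220-CD138+TACI+ gate. For immature B cells the gate was AireGFP-B220+CD138-TACI-IgM+. Each population had 2 libraries of 2000 to 15000 sorted cells. The labels do not say that replicates came from different mice, so the spread between them may be technical. The question was how open chromatin at these genes compares between pc-BMACs, plasma cells and immature B cells.

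As background, CXCR4 answers to CXCL12, which stromal cells of the marrow secrete, and keeps precursors and plasma cells there. CXCR5 and CCR7 steer mature B cells to follicles and to the border of the T cell zone, and S1PR1 draws cells out of tissues towards blood. Integrin alpha 4 with beta 1 binds VCAM1 on stroma, alpha 9 with beta 1 binds VCAM1 and matrix proteins, CD44 binds hyaluronan, CD9 organises integrins in the membrane, and IL6RA receives a survival signal for plasma cells. Open regions in and around a gene are candidate regulatory elements, and a called peak says that cuts were dense there, not that the gene was transcribed.

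The lists held between 34070 and 51643 peaks and covered between 21.547 and 36.863 Mb of the genome, with immature B cells 1 the longest list and pc-BMACs 2 the shortest. They hold no read counts, so depth is unknown, a region that was not called is not shown to be closed, and no interval that needs a depth is given. The narrowest peak of each list was 150 bp wide, so a width of 150 bp below is the floor of the lists. With 2 libraries a population, no exact test over the 4 libraries of a comparison can give a two-sided p below 0.333, so counts are set beside the same counts over all assigned regions. The plasma cell marker Jchain, with 3 regions, was called 3 and 3 times in pc-BMACs, 3 and 3 in plasma cells, compared with 1 and 0 in immature B cells, and regions of the B cell factor Pax5 were called 7 and 5 times, 10 and 8 times, and 15 and 14 times in the same order. Over the whole list of 7 plasma cell markers the libraries did not separate by population (62.5% to 70.3% of 64 regions called), and the 1 region of Aire was called in all 6 libraries. The 4 erythroid markers Hba-a1, Hbb-bt, Gata1 and Alas2 had 1 region each, found in the list of plasma cells 1 alone.

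Where the reference table held 1 start site for a gene, the DNA just upstream could be set beside the calls. It matched 6 of the 9 genes, and the 4 windows that hold a match to one of the motifs below are shown, since their letters can be compared. They are the 250 bases before the RefSeq start site on the gene's strand (GRCm38.p6, the assembly named mm10), from the reference mouse and not from Balb/c. Capitals mark matches, on either strand and possibly overlapping, to the GC box GGGCGG, the CCAAT box, the TATA box TATAAA, the E-box CACGTG and the NRF1 motif GCGCATGC.
Cxcr4, chr1:128592300-128592549, minus strand: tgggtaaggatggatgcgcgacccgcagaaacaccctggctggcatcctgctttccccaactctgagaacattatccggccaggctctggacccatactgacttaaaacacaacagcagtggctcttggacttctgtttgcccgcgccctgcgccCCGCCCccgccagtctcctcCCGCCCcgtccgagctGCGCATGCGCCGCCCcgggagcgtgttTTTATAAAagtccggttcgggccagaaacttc
Itga4, chr2:79255176-79255425, plus strand: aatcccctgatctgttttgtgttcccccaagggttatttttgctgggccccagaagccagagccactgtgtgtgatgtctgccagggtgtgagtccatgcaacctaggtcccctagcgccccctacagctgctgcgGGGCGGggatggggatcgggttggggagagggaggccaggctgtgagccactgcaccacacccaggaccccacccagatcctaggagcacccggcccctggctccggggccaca
Cd9, chr6:125494761-125495010, minus strand: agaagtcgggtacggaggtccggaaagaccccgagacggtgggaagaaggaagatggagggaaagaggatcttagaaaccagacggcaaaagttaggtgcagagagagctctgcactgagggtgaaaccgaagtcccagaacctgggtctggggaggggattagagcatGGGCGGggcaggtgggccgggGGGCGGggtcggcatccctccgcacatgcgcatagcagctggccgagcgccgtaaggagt
Il6ra, chr3:89913197-89913446, minus strand: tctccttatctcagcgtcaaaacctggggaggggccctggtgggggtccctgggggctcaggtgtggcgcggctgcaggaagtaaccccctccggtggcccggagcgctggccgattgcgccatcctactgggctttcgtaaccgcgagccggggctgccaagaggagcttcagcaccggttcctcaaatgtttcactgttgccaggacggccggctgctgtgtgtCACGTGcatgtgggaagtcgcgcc

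The peaks of every library covered all 250 bases of the windows of Cxcr4, Itga4 and Il6ra. At Cd9 they covered 199 and 232 bases in pc-BMACs, 166 and 153 in plasma cells, compared with 126 and 97 in immature B cells. The window of Cd44, not printed, was covered over 133 and 158 bases, 83 and 77 bases, and 100 and 68 bases in the same order. No share over the windows of other genes is given for these values, which depend on where peak edges were set. For Itga9 the table's start site (chromosome 9, 118711692) lies inside the gene, and no library had a peak in the window before it. The Cxcr4 window held 3 GC boxes, which 42.6% of 21262 windows of the same length at protein-coding genes hold at least once, and matches to the NRF1 motif, which 2.93% hold. A GC box overlaps the NRF1 letters, and its TATA match (11.6% of windows) reads on both strands. Il6ra had an E-box, found in 6.63% of windows, and no GC box in these letters. A match is a description of the letters and not a site of binding.

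The genes differed in how many of their regions each library called. Itga9 stood at one end, with 24 regions called 4 and 4 times in pc-BMACs, 7 and 8 in plasma cells, compared with 22 and 20 in immature B cells. Cd9 stood at the other, with 11 regions called 8 and 7 times in pc-BMACs, 8 and 8 in plasma cells, compared with 5 and 4 in immature B cells. The calls of the 9 Il6ra regions leaned the same way, with 8 and 7, 8 and 8, and 6 and 6 in that order. Over all 142 regions the libraries called 81 and 66 in pc-BMACs, 83 and 84 in plasma cells, compared with 109 and 94 in immature B cells. As shares these were 57.0% and 46.5%, 58.5% and 59.2%, and 76.8% and 66.2%, while over all assigned regions they were 56.3% and 48.8%, 52.8% and 51.3%, and 73.8% and 64.9%. The higher share in immature B cells thus also held for the genome as a whole.

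**Figure D1:**
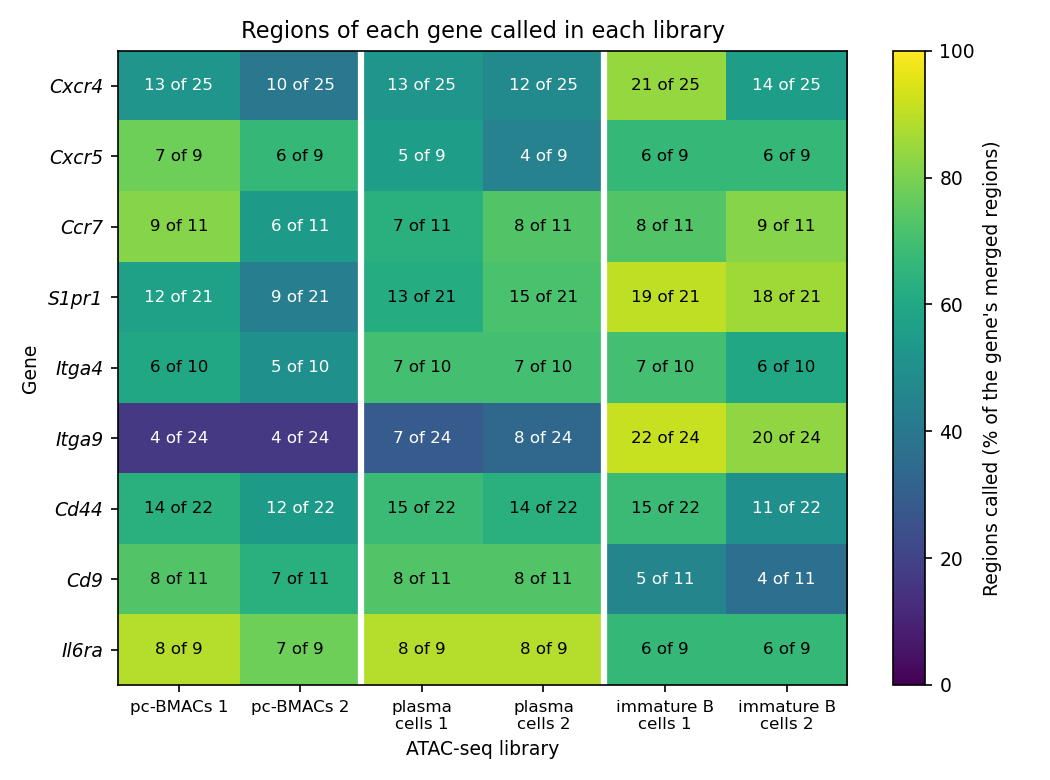
Number and percentage (colour) of each gene's merged regions called in each of the 6 ATAC-seq libraries, genes in rows and libraries in columns. Itga9 runs from 4 of 24 regions in both pc-BMAC libraries to 22 and 20 of 24 in immature B cells, while Cd9 and Il6ra have fewer called regions in immature B cells than in the other libraries.

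Of the 142 regions, 42 (29.6%) were called in all 6 libraries, against 30.6% of all assigned regions. Immature B cells alone had 28 regions, both libraries calling them and no other library (19.7%, against 13.6% of all assigned regions). Plasma cells and immature B cells shared 12 that neither pc-BMAC library had (8.45%, against 4.68%), and pc-BMACs and plasma cells shared 10 that were absent from both immature B cell lists (7.04%, against 3.73%). Itga9 held 10 of the 28 regions and 5 of the 12. The pattern of both pc-BMAC and both immature B cell libraries without plasma cells had 0 of 142 (against 1.07%). Called in both libraries of one population alone were 3 regions of pc-BMACs (2.11%, against 4.53%) and 1 of plasma cells (0.704%, against 1.51%). The other 46 regions (32.4%, against 40.2%) were called in only 1 library of at least 1 population. Of the regions called in either library of a population, both had 75.0% for pc-BMACs, 89.8% for plasma cells and 82.9% for immature B cells. Over all assigned regions these shares were 76.9%, 76.8% and 77.5%, so the populations differed little there. In pc-BMACs 18 of the 21 regions that the libraries did not share were in pc-BMACs 1, and in immature B cells 17 of 19 were in immature B cells 1, the longer list of each pair. Over all assigned regions, 6912 of 8948 unshared regions were in pc-BMACs 1 and 8670 of 11481 in immature B cells 1.

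Position went with these patterns. Of the 42 regions called everywhere, 10 lay within 1 kb of a gene end (23.8%, against 48.1% of all assigned regions of that pattern). The 9 genes had 9 to 25 regions each, of which 1 or 2 lay that near an end. The part of region number in this share was not tested. The median merged width of the 42 was 1273 bp, against 1158 bp over all assigned regions of that pattern. All 10 regions shared by pc-BMACs and plasma cells lay inside the gene, against 72.0% of all assigned regions of that pattern, and belonged to Itga4, Cd44, Cd9 and Il6ra. Of the 28 regions of immature B cells alone, 14 lay inside the gene (50.0%, against 57.8%) and none within 1 kb of an end (against 6.32%). Their median width was 360 bp, against 320 bp. The genes differ in size, and Itga9 spans 294.3 kb and holds all of its 24 regions, whereas Cxcr4 and S1pr1 span 4.1 and 4.62 kb and have 24 of 25 and 20 of 21 regions outside them. A region far from these genes was given to them because no other protein-coding gene was nearer, which does not show that it acts on them.

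**Figure D2:**
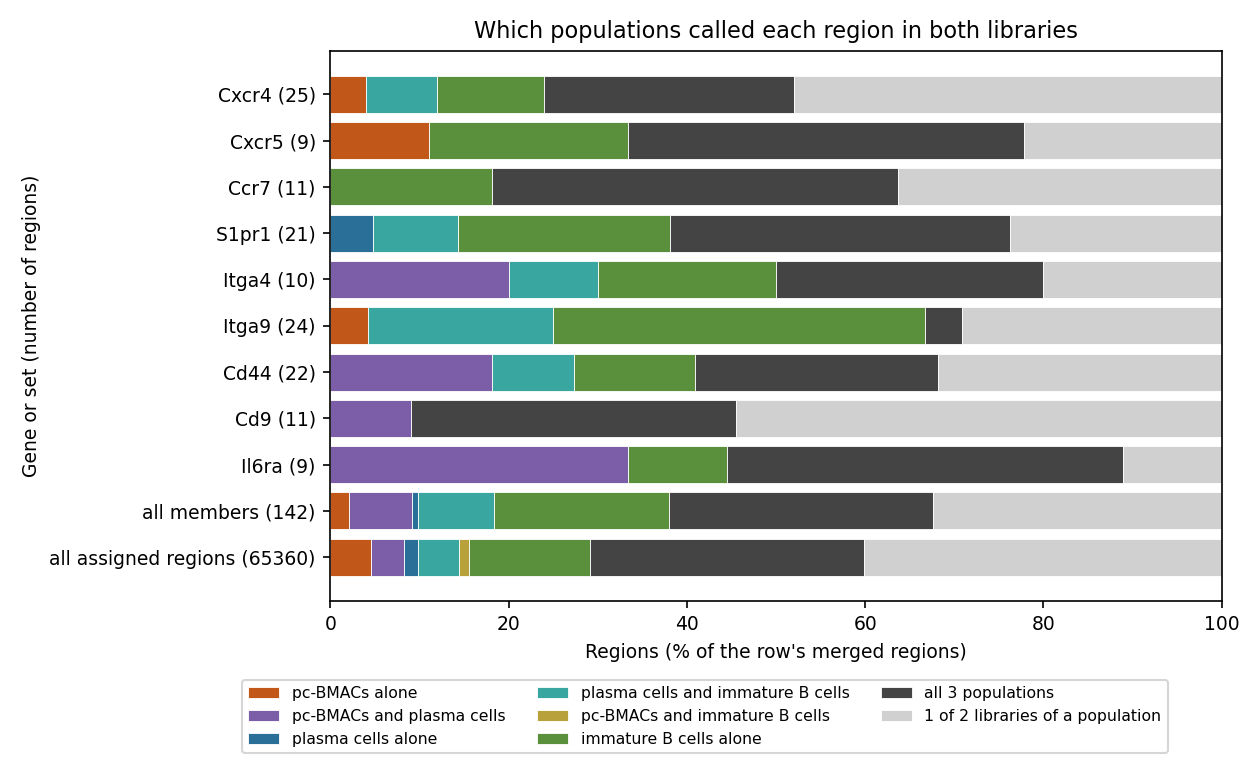
Percentage of merged regions, per gene, over all 142 regions and over all 65360 assigned regions, by which populations called a region in both libraries and in no other library. Regions of pc-BMACs and plasma cells (purple) occur at Itga4, Cd44, Cd9 and Il6ra, and regions of immature B cells alone (green) make up 10 of 24 at Itga9.

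Among the chemokine receptors, Cxcr4 had shares near those of all assigned regions: 28.0% of its regions were called in every library (against 30.6%) and 12.0% in immature B cells alone (against 13.6%). Its 25 regions on chromosome 1 (gene at 128588199 to 128592299) were called 13 and 10 times in pc-BMACs, 13 and 12 times in plasma cells, compared with 21 and 14 times in immature B cells. The pc-BMAC and plasma cell counts overlapped. Of the 21 regions seen in immature B cells, 7 were called in immature B cells 1 and not in immature B cells 2. All 6 lists held 7 regions, led by the one over the gene (128588975 to 128593918), where peaks covered 2985 and 2769 bp in pc-BMACs, 2774 and 2767 bp in plasma cells, compared with 4944 and 2995 bp in immature B cells. A region 42.9 kb beyond the start-site end of the gene (128635171 to 128637544) was broadest in pc-BMACs, with 2326 and 2284 bp covered, 1123 and 988 bp in plasma cells, compared with 1606 and 507 bp in immature B cells. The 1 region of pc-BMACs alone, 19.5 kb beyond that end (128611802 to 128612278), had peaks of 477 and 436 bp. Absent from both pc-BMAC lists were 2 regions that plasma cells and immature B cells called, at 8.2 kb (128600452 to 128601839) and 82.7 kb (128674997 to 128676519) from the gene. In the first the peaks were 269 and 313 bp in plasma cells, compared with 1388 and 529 bp in immature B cells. Immature B cells alone had 3 regions, the widest at 128667149 to 128667727.

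Cxcr5 had 9 regions on chromosome 9 (gene at 44511787 to 44526444), called 7 and 6 times in pc-BMACs, 5 and 4 times in plasma cells, compared with 6 and 6 times in immature B cells. A single region was called in both pc-BMAC libraries and missing from both plasma cell lists: 44540016 to 44540460, 13.6 kb outside the gene, with peaks of 445 and 358 bp in pc-BMACs and none in any other library. Farther out, a region (44562345 to 44563211) was called at 847 and 848 bp in pc-BMACs and at 792 bp in plasma cells 1, but not in plasma cells 2 or in immature B cells. Immature B cells alone had 44533075 to 44533585 and 44544964 to 44545315, which lie on either side of the pc-BMAC region. One further region that touches Cxcr5 also overlaps Bcl9l by more bases and was counted for Bcl9l.

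Ccr7, whose product guides lymphocytes to the T cell zone, had counts that overlapped among the populations. Of its 11 regions on chromosome 11 (gene at 99144199 to 99155077), pc-BMACs had 9 and 6, plasma cells 7 and 8, and immature B cells 8 and 9, so all ranges overlapped. Every library called 5 regions, and 2 were called in immature B cells alone, the wider at 99136288 to 99137262 with peaks of 975 and 814 bp. At the region over the higher-coordinate gene end (99153817 to 99156316) peaks covered 791 and 640 bp in pc-BMACs, 653 and 618 bp in plasma cells, compared with 2500 and 1756 bp in immature B cells.

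S1pr1, the egress receptor, had 57.1% and 42.9% of its regions called in pc-BMACs, near the 56.3% and 48.8% of all assigned regions. In plasma cells 61.9% and 71.4% were called (52.8% and 51.3% of all assigned regions), and in immature B cells 90.5% and 85.7% (73.8% and 64.9%). Its 21 regions on chromosome 3 (gene at 115710433 to 115715055) were called 12 and 9 times in pc-BMACs, 13 and 15 times in plasma cells, compared with 19 and 18 times in immature B cells. No region was called in pc-BMACs alone. Plasma cells had 3 regions that neither pc-BMAC library had: 115669313 to 115669586, in plasma cells alone with peaks of 191 and 237 bp, and 115681013 to 115682120 and 115734771 to 115735254, which immature B cells also had. Immature B cells alone had 5 regions, of which the widest (115694881 to 115695931, 14.5 kb from the gene) had peaks of 1051 and 600 bp. The region at 115672868 to 115674423 was called in 5 libraries, with 150 bp and no peak in pc-BMACs, 922 and 881 bp in plasma cells, compared with 1556 and 1254 bp in immature B cells.

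Of the 9 genes, Itga9 had the largest gap between populations in its share of called regions. The integrin alpha 9 gene (chromosome 9, 118606709 to 118901003) had 10 regions called in immature B cells alone, 5 in plasma cells and immature B cells, 1 in pc-BMACs alone and 1 in every library. Those of immature B cells alone were led by 118731215 to 118732083, with peaks of 869 and 816 bp, and 118821428 to 118822013, with 586 and 365 bp. The 5 regions that pc-BMACs lacked and plasma cells kept included 118661955 to 118662950, with 150 and 270 bp in plasma cells, compared with 996 and 907 bp in immature B cells, and 118669427 to 118670414, with 397 and 423 bp and 988 and 834 bp. In each of the 5, both plasma cell peaks were narrower than both immature B cell peaks. That order was common: it held at 54.4% of the 20029 assigned regions called in all 6 libraries, which are a different set. The region of pc-BMACs alone (118611350 to 118611701) lay in the gene, 4641 bp from its lower-coordinate end, with peaks of 352 and 187 bp. The region over that end (118606441 to 118607424) was missing from pc-BMACs 1 and had 150 bp in pc-BMACs 2, 270 and 150 bp in plasma cells, compared with 984 and 381 bp in immature B cells.

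**Figure D3:**
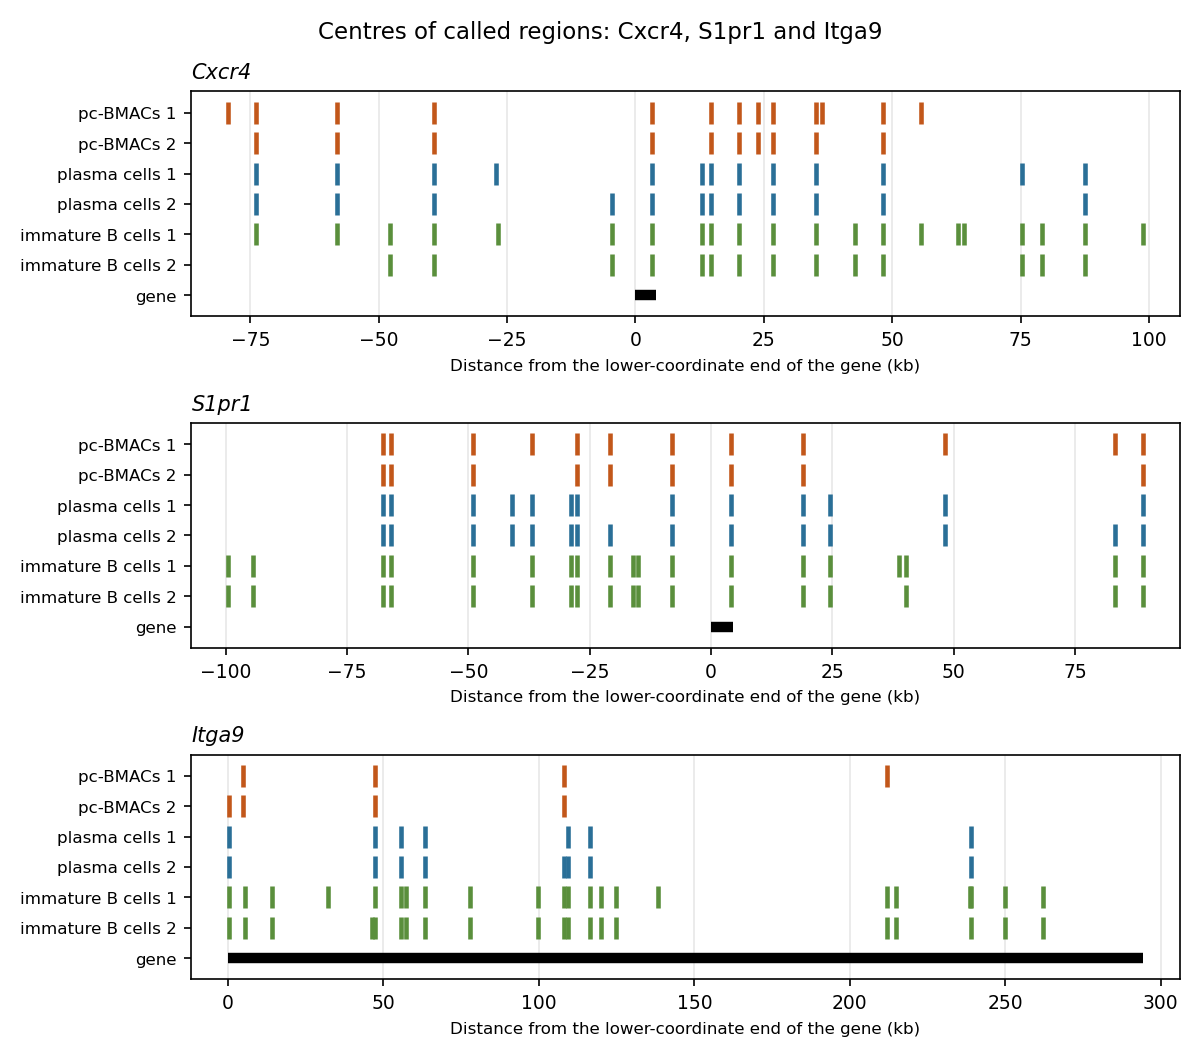
Centres of called regions at Cxcr4, S1pr1 and Itga9 in the 6 libraries, plotted as distance in kb from the gene's lower-coordinate end, with the gene as a black bar and 1 tick per called region. At Itga9 the pc-BMAC rows hold 4 ticks each and the immature B cell rows 22 and 20, and at Cxcr4 a tick at 23.84 kb appears in the pc-BMAC rows only.

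The immature B cell and myeloid marker lists were called more often in immature B cells, as were all assigned regions (56.3% and 48.8%, 52.8% and 51.3%, and 73.8% and 64.9% in the order used here). The immature B cell marker list (7 genes, 6 with a region) had 56.9% and 37.3% of its 51 regions called in pc-BMACs, 60.8% and 49.0% in plasma cells, compared with 78.4% and 70.6% in immature B cells, and 4 to 6 of its genes had a called region in each library. The single region of Cd79a was called in 5 libraries and missing from pc-BMACs 2, and Ighm had no region. The myeloid list (5 genes, 4 with a region) had 31.8% and 31.8% of its 22 regions called in pc-BMACs. Shares were 40.9% and 40.9% in plasma cells, compared with 77.3% and 72.7% in immature B cells. Itgam held 15 of the 22 regions, called at 5 and 4, 7 and 6, and 13 and 13. Csf1r had 1 and 2, 1 and 1, and 3 and 3 of 4 regions, while Mpo went the other way with 1 and 1, 1 and 2, and 0 and 0 of 2. Myeloid genes with a called region numbered 3 and 3, 3 and 3, and 3 and 2. The T and NK cell list had 57.1% and 35.7%, 57.1% and 50.0%, and 64.3% and 42.9% of 14 regions. The part of other cells within the sorted populations in the results was not tested. In bulk libraries fewer cells with an open region and less opening per cell cannot be told apart.

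Itga4, which encodes the alpha 4 chain, had different regions called in different populations at similar counts. Its 10 regions on chromosome 2 (gene at 79255426 to 79333114) were called 6 and 5 times in pc-BMACs, 7 and 7 in plasma cells, compared with 7 and 6 in immature B cells, and pc-BMACs and immature B cells overlapped. Inside the gene, 79266493 to 79266963 and 79267132 to 79267533 were called in all pc-BMAC and plasma cell libraries and in no immature B cell library. Peaks of the first were 402 and 370 bp in pc-BMACs and 439 and 436 bp in plasma cells. Less than 1 kb away, 79265675 to 79266003 was called in immature B cells alone, at 233 and 329 bp. A region 23.9 kb outside the gene (79230937 to 79231482) was called in plasma cells and immature B cells and not in pc-BMACs. At the start site (79254495 to 79257518) the peaks covered 2118 and 1895 bp in pc-BMACs, 2173 and 2108 bp in plasma cells, compared with 3024 and 1966 bp in immature B cells, and pc-BMACs and immature B cells overlapped.

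Cd44 likewise had regions called in some populations and not in others at similar counts. Its 22 regions on chromosome 2 (gene at 102811141 to 102901669) were called 14 and 12 times in pc-BMACs, 15 and 14 in plasma cells, compared with 15 and 11 in immature B cells. Inside the gene 4 regions were called in pc-BMACs and plasma cells and in neither immature B cell library. The widest (102895937 to 102897049) had 535 and 480 bp covered in pc-BMACs and 1072 and 815 bp in plasma cells, and 102864799 to 102865758 had 960 and 799 bp and 797 and 666 bp. The pair at 102812617 to 102813422 and 102814821 to 102816069, near the end of the gene away from its start site, was called in plasma cells and immature B cells only. In the second of this pair, peaks covered 388 and 498 bp in plasma cells, compared with 1249 and 828 bp in immature B cells. Immature B cells alone had 3 regions, one of them (102899168 to 102900055) 1614 bp from the start-site end of the gene.

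Cd9 and Il6ra were the genes whose regions were called more often in pc-BMACs and plasma cells than in immature B cells. Cd9 (chromosome 6, 125460266 to 125494760) had 6 regions in the gene and 5 outside it. It was the 1 gene of the 9 with no region of immature B cells alone. One region inside the gene (125483443 to 125484296) was called in both libraries of pc-BMACs and plasma cells, at 832 and 227 bp and at 277 and 285 bp. The libraries of pc-BMACs disagreed at 5 of the 10 Cd9 regions that either called, among them 125481011 to 125481390, which had no peak in pc-BMACs 1, 187 bp in pc-BMACs 2 and 355 and 356 bp in plasma cells.

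Il6ra (chromosome 3, 89869324 to 89913196) held all 9 of its regions inside the gene. Of these, 3 were called in both pc-BMAC and both plasma cell libraries and in no immature B cell library. The widest, 89877526 to 89878957, had peaks of 1432 and 702 bp in pc-BMACs and 536 and 440 bp in plasma cells. The next, 89882437 to 89883451, had 1015 and 747 bp in pc-BMACs and 555 and 458 bp in plasma cells. The third, 89905952 to 89906486, had 515 and 479 bp and 379 and 445 bp. In all 3 both pc-BMAC peaks were wider than both plasma cell peaks, a common order. It held at 50.1% of the 20029 assigned regions called in all 6 libraries, which are a different set. Called in immature B cells alone was 89872192 to 89872559, at 368 and 150 bp. Peaks at Il6ra covered 8.32 and 6.61 kb in pc-BMACs, 5.76 and 4.6 kb in plasma cells, compared with 4.47 and 2.77 kb in immature B cells.

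**Figure D4:**
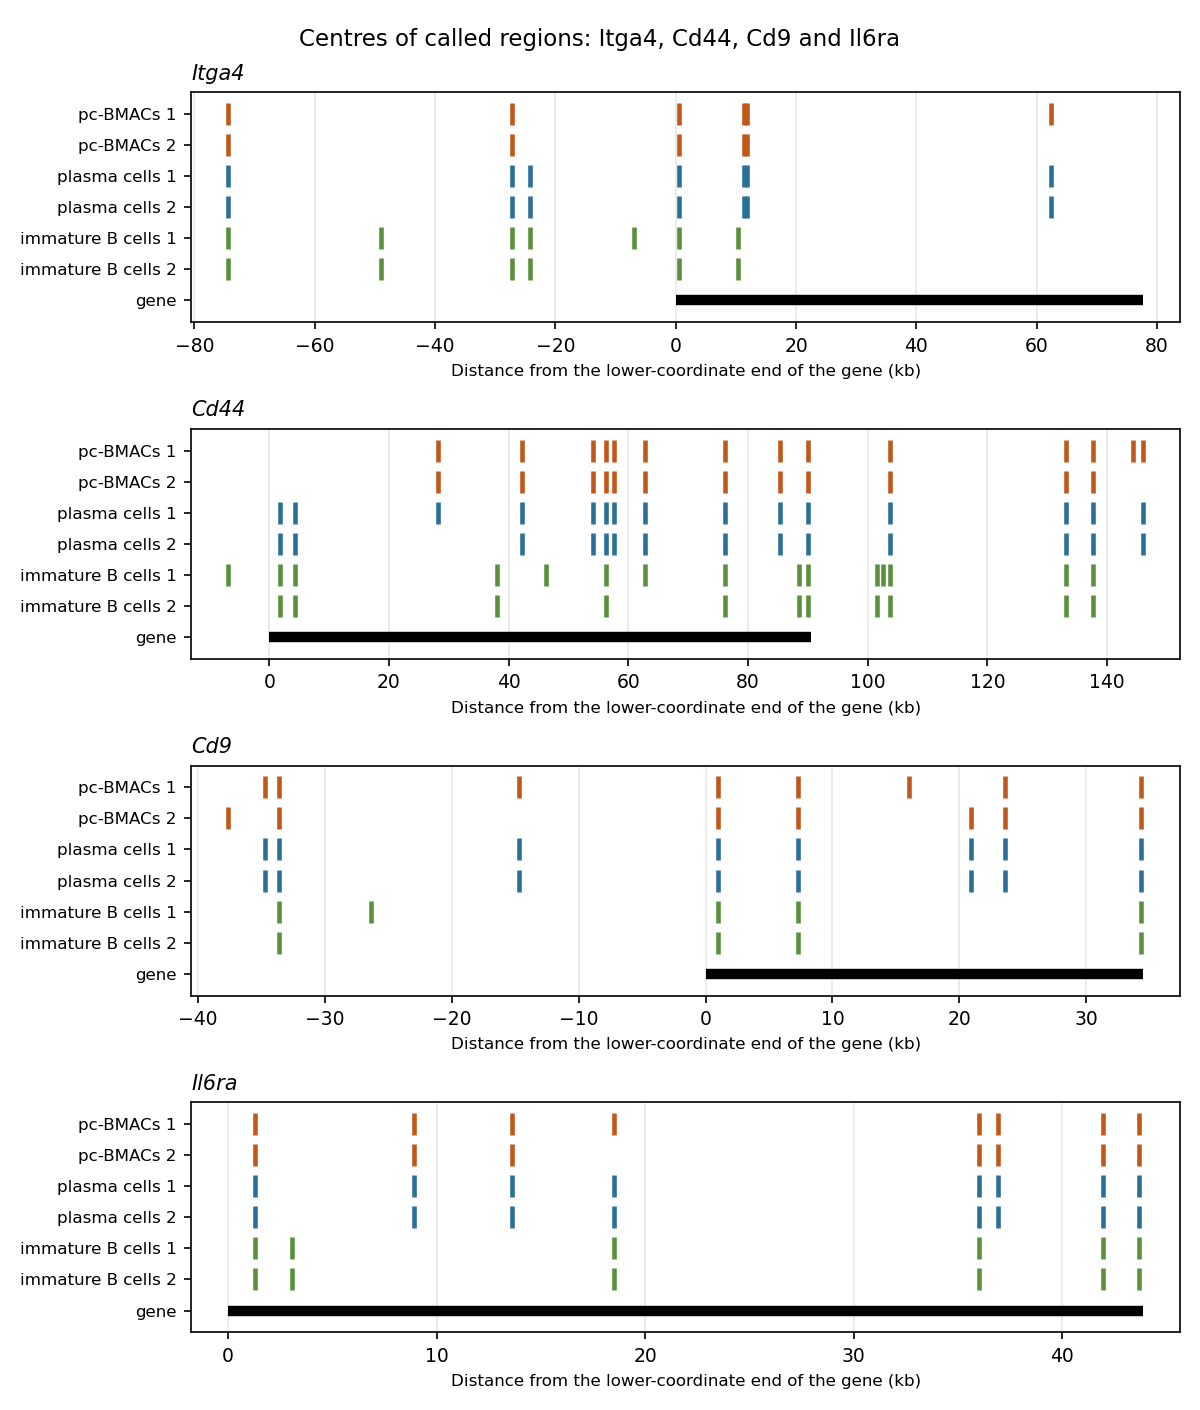
Centres of called regions at Itga4, Cd44, Cd9 and Il6ra in the 6 libraries, as distance in kb from the gene's lower-coordinate end, with the gene as a black bar and 1 tick per called region. The 10 regions with a tick in all 4 pc-BMAC and plasma cell rows and in neither immature B cell row lie inside the genes, as at 8.92 and 13.62 kb in Il6ra.

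Between pc-BMACs and plasma cells, 100 member regions were called in at least 1 of the 4 libraries. The lists of pc-BMACs 1 and 2 shared 3 that plasma cells lacked (3.0%, against 8.48% of all assigned regions), 1 each at Cxcr4, Cxcr5 and Itga9. The opposite pattern had 13 of the 100 (against 8.99% of all assigned regions): 5 at Itga9, 3 at S1pr1, 2 each at Cxcr4 and Cd44, and 1 at Itga4. The 5 were among 10 Itga9 regions, and the other genes together had a share near that of all assigned regions. Plasma-cell-only regions outnumbered pc-BMAC-only regions at 5 genes, Cxcr5 had more pc-BMAC-only regions, and Ccr7, Cd9 and Il6ra had none in either direction. Of the 13 plasma-cell-only regions, 12 were also called by immature B cells 1 and 2. These counts depended on the rule for a call. Requiring peaks over 50% of a region gave 8 in each direction (11.1%, against 15.0% for pc-BMACs and 6.9% for plasma cells). At Itga9 the excess of plasma-cell-only regions was then 0. With pc-BMACs 2 left out, pc-BMAC-only regions numbered 11, and with either plasma cell library left out 5. Plasma-cell-only regions numbered 21 with pc-BMACs 1 left out. Leaving out a library loosens the rule for all regions alike. No share over all assigned regions is given for these counts, so the rise is not a result about the 9 genes.

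Against immature B cells, pc-BMACs had 15 regions of 140 that were missing from both immature B cell lists (10.7%, against 10.5% of all assigned regions), a share at the background. The pc-BMAC-only regions numbered 27 with pc-BMACs 2 left out, a looser rule for which no share over all regions is given. Of the 15, Cd44 had 5, Il6ra 3, Cxcr5 and Itga4 2 each, and Cxcr4, Itga9 and Cd9 1 each. The immature-B-only regions numbered 42 (30.0%, against 23.0%), of which Itga9 held 15, Cxcr4 and S1pr1 7 each, Cd44 5, Itga4 3, Cxcr5 and Ccr7 2 each and Il6ra 1. Those 15 were from the 24 Itga9 regions, and the other genes together had a share near that of all assigned regions. Limiting every list to its widest 34070 peaks left 27 (23.1%, against 15.1%), which was a share above that of all regions as well. Itga9 was kept in that share.

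Plasma cells against immature B cells gave 17 plasma-cell-only regions of 132 (12.9%, against 6.46% of all assigned regions), from Cd44 with 5, Cd9 with 4, Itga4 and Il6ra with 3 each and S1pr1 with 2. There were 29 immature-B-only regions (22.0%, against 18.4%), with 11 at Itga9, 5 at S1pr1, 3 each at Cxcr4 and Cd44, 2 each at Cxcr5, Ccr7 and Itga4 and 1 at Il6ra. Itga9 had 23 regions in this comparison, and the other genes together had a share below that of all assigned regions. The plasma-cell-only share was also above that of all regions under the 50% rule (12.6%, against 5.73%) and with the widest 34070 peaks (13.3%, against 10.0%). Leaving out either plasma cell library or either immature B cell library gave 18 to 20 such regions. The rule then asks for fewer libraries, which tends to raise the count, so this range does not measure stability. The comparisons share libraries, so their counts are not independent of each other.

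Peak width gave a second reading at the 42 regions called in every library. The median bases covered were 789.5 and 736.5 in pc-BMACs, 665.0 and 643.5 in plasma cells, compared with 1246.5 and 741.0 in immature B cells, and over all 20029 such regions 915.0 and 775.0, 717.0 and 707.0, and 1040.0 and 772.0. Both pc-BMAC libraries were wider than both plasma cell libraries at 19 of the 42 (45.2%, against 50.1% of all such regions), and the reverse held at 8 (19.0%, against 8.71%), 5 of them at S1pr1, 2 at Cxcr4 and 1 at Itga9. Over the 8 shared regions of S1pr1 the medians were 442.5 and 333.0 bp in pc-BMACs, 463.5 and 555.5 bp in plasma cells, compared with 1286.5 and 792.5 bp in immature B cells. At the 4 shared regions of Il6ra the order ran the other way, with 1359.0 and 1221.5 bp in pc-BMACs, 1004.0 and 796.0 bp in plasma cells, compared with 794.0 and 603.5 bp in immature B cells. Both pc-BMAC libraries exceeded both immature B cell libraries at 3 of the 4 shared Il6ra regions and at 10 of all 42 (23.8%, against 17.9%). Both immature B cell libraries were wider than both pc-BMAC libraries at 16 of 42 (38.1%, against 29.5%), 6 of them at S1pr1, and wider than both plasma cell libraries at 22 (52.4%, against 54.4%). Plasma cells were the wider at 6 (14.3%, against 6.81%). Width depends on depth and on the caller, neither of which is given, so it orders libraries within a region only as the lists do.

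**Figure D5:**
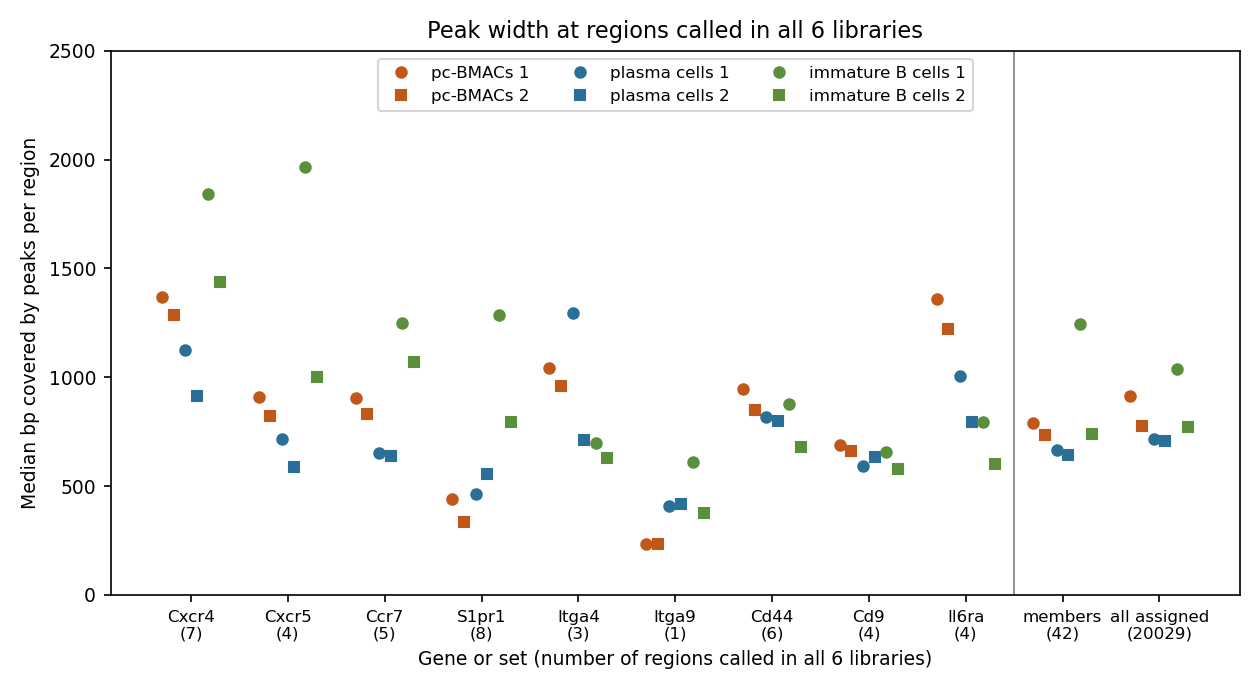
Median bases covered by peaks per region, for each library, at the regions of each gene called in all 6 libraries, and over the 42 member regions and all 20029 such regions (right of the line). S1pr1 has its lowest points in pc-BMACs, at 442.5 and 333.0 bp, and Il6ra has its highest there, at 1359.0 and 1221.5 bp.

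Total covered length per gene followed the same order at a few genes. Among genes with 9 or more regions, both plasma cell libraries exceeded both immature B cell libraries at 5.92% of 1825 genes, and among the 9 genes here at Cd9 and Il6ra. Peaks at Cd9 covered 3.37 and 3.72 kb in plasma cells, compared with 2.57 and 2.06 kb in immature B cells. Both pc-BMAC libraries exceeded both immature B cell libraries at the same 2 genes, against 16.7% of the 1825. At Itga9 the covered length was 1.01 and 0.77 kb in pc-BMACs, 1.8 and 2.26 kb in plasma cells, compared with 11.19 and 8.26 kb in immature B cells, so the populations did not overlap. It was 1 of 3 genes, with Ccr7 and S1pr1, where both immature B cell libraries exceeded both pc-BMAC libraries (42.4% of the 1825). It was also 1 of 2, with S1pr1, where both plasma cell libraries exceeded both pc-BMAC libraries (19.3%). The pc-BMACs covered more than plasma cells at Cxcr4, Cxcr5 and Il6ra (3 of 9, against 49.3%), and immature B cells more than plasma cells at Cxcr4, Cxcr5, Ccr7, S1pr1 and Itga9 (5 of 9, against 67.3%).

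The wider set of homing and adhesion genes, 56 genes of which 54 had a region, held 387 regions. Between pc-BMACs and plasma cells it had 31 pc-BMAC-only regions of 290 (10.7%, against 8.48% of all assigned regions) and 25 plasma-cell-only regions (8.62%, against 8.99%). Here 15 genes had more pc-BMAC-only regions, 13 had more plasma-cell-only regions, 1 had as many of each and 23 had none. Rap1a, a small GTPase that activates integrins, had 5 pc-BMAC-only regions, and its regions were called 18 and 13 times in pc-BMACs, 10 and 10 in plasma cells, compared with 9 and 6 in immature B cells. Pecam1, an adhesion molecule of leukocytes and endothelium, had 3, with 10 and 8, 5 and 5, and 4 and 4 called regions, and the tetraspanin gene Cd82 also had 3. Rgs1, which dampens chemokine receptor signals, was the 1 gene with at least 3 plasma-cell-only regions. It had 4, and its regions were called 2 and 1 times in pc-BMACs, 6 and 5 in plasma cells, compared with 11 and 10 in immature B cells.

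Against immature B cells the wider set had 48 pc-BMAC-only regions of 370 (13%, against 10.5%), led by Rap1a with 7, Cd82 with 5 and Pecam1 with 4, and 82 immature-B-only regions (22.2%, against 23.0%). Immature-B-only regions were led by Rgs1 with 9 and S1pr3, another sphingosine 1-phosphate receptor, with 6, followed by Itgal, Itga2, Cxcl12, Cd82 and Cd93 with 4 each. Cxcl12, the ligand of CXCR4, had no called region in any pc-BMAC or plasma cell library and 4 and 5 in immature B cells. Plasma cells against immature B cells gave 30 plasma-cell-only regions of 335 (8.96%, against 6.46%), with 4 each at Dock2, which activates Rac in migrating lymphocytes, and Rap1a and 3 at Itga1, and 64 immature-B-only regions (19.1%, against 18.4%). Rgs1 led these with 5, and Cxcl12, Cd82 and Cd93 had 4 each.

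Genes with a like pattern over the libraries were sought among 1517 others with 10 or more regions, as the mean absolute difference in the percentage of regions called over the 6 libraries. Cd2ap (2.88 percentage points, 14 regions) and Ldlrad3 (3.47) were among the 3 nearest to Itga9, with 14.3% and 14.3% of Cd2ap regions called in both pc-BMAC lists, 35.7% and 35.7% in plasma cells, compared with 92.9% and 85.7% in immature B cells. B3gnt2 (3.36), Slc25a33 (3.67) and Rps6ka5 (3.89) were nearest to Cxcr4, Kif5c (3.73), Sema4d (4.62) and Commd8 (4.68) to S1pr1, and Bptf (3.64), Cxxc5 (5.35) and Rubcnl (5.41) to Ccr7. The nearest to Itga4 were Atp1b1 and Slain1 (1.67 each) and 4930523C07Rik (3.33). Cd47 (2.95), Slain1 (3.03) and Bhlhe41 (3.54) were nearest to Cd44, and Mcu (3.03), Ccnl1 (5.0) and Tiparp (5.41) to Cd9. With few regions a gene, 1 call moves a percentage by several points.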

How the data were processed

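Open chromatin was measured by ATAC-seq in 6 libraries, 2 for each of 3 sorted bone marrow populations. Each library has 1 deposited peak list of 5 columns. Per the submitters' processing notes, the tools were Bowtie2 2.3.3, HOMER 4.10 and bedtools and the build mm10, with no role or order stated. How peaks were called or filtered is not given in the sources used here. As deposited by the authors, the score is 1000 for each peak and carries no information. Peak starts and ends of the deposited lists were used as given, and coordinates are printed counting from 1.

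Peaks sharing 1 bp or more were merged over all lists, and a library had a region when any of its peaks lay in it. Regions went to the nearest of 21883 protein-coding gene intervals of RefSeq's GRCm38.p6 table within 100 kb, and a region over several genes went to the one it overlapped most. Group-only regions were called in both libraries of one population and neither of the other. No test was run, since 2 libraries a group cannot reach a small p in an exact test. Merging, calling and assignment were tested on simulated data against bedtools. Python 3.11.15, pandas 2.3.3 and numpy 2.4.6 were used. The 9 genes and all lists were chosen with earlier results of these data known. All 9 are named. Coordinates were taken for at most 3 regions per pattern and gene, widest first, and for regions over gene ends or with a partial pattern that were chosen after their values were seen. Genes of the wider list were named from 3 group-only regions. Alternatives changed the overlap rule, list length, merging, assignment and libraries used. Values of some genes outside the 9 are not reported here.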

Additional observations from a re-analysis of the deposited data

How the results depend on the processing

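No paired analysis was possible because the counts come from no test and the replicate numbers of the titles are not stated to mark shared mice, so only the pairs that share an R number in their descriptions were compared, 1 library against 1. Those pairs gave 6 for pc-BMACs and 23 for plasma cells between pc-BMACs and plasma cells (3 and 13 with all 4 libraries), and 28 pc-BMAC-only regions against immature B cells (15). Under the 50% rule for covered bases the first 2 counts were 8 and 8. With the widest 34070 peaks, immature-B-only regions numbered 27 against pc-BMACs (42 with all peaks) and 16 against plasma cells (29). Their shares were 23.1% (against 15.1% of all assigned regions) and 14.2% (against 9.74%). Itga9 was kept in these shares. The widest 17035 gave 0 pc-BMAC-only regions (0.0%, against 7.03% of all assigned regions) and 7 plasma-cell-only regions (14.6%, against 6.84%) between pc-BMACs and plasma cells. Immature-B-only regions against pc-BMACs numbered 16 (26.2%, against 11.3%). Plasma cells and immature B cells gave 10 plasma-cell-only (16.4%, against 8.37%) and 9 immature-B-only regions (14.8%, against 7.73%). These lists hold fewer peaks by construction. Regions overlapping the gene alone gave 1 and 7 between pc-BMACs and plasma cells, 21 immature-B-only regions against pc-BMACs and 15 against plasma cells, since fewer regions enter. Leaving out 1 library gave 4 to 11 (pc-BMAC-only) and 14 to 21 (plasma-cell-only) between pc-BMACs and plasma cells. Between pc-BMACs and immature B cells it gave 16 to 27 pc-BMAC-only and 43 to 55 immature-B-only regions. Between plasma cells and immature B cells it gave 18 to 20 plasma-cell-only and 30 to 43 immature-B-only regions. The rule then asks for fewer libraries, which tends to raise every count, so these ranges do not measure stability. No share over all assigned regions is given for left-out libraries, the R pairs or regions overlapping the gene.

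The balance of a gene is its regions of the first population only minus those of the second only. Of 27 such balances, 5 were 0 under the main rule, and 4 of these took both signs over the alternatives (Ccr7 and Il6ra between pc-BMACs and plasma cells, each -1 to 1, and Cxcr5, -1 to 2, and Cd44, -3 to 2, between pc-BMACs and immature B cells). Of the other 22, 17 never took the opposite sign, although some became 0. Turned were Cxcr4 between pc-BMACs and plasma cells (2, against -1, with the 50% rule, and -3 to 2 when 1 library was left out, with 2 without pc-BMACs 2), Itga4 between pc-BMACs and immature B cells (1, -1 with the main rule, with the widest 34070 peaks, within 20 kb and inside the gene), Ccr7 in the R pair of the same comparison (1, -2 with the main rule), Cxcr5 between plasma cells and immature B cells (1, -2 with the main rule, with the widest 17035 peaks) and Cd44 there without immature B cells 2 (-1, 2 with the main rule). The cause was not tested. The balance of Itga9 was negative for pc-BMACs and for plasma cells against immature B cells in each alternative that applied to them. Unknown depth limits every absence.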
